A study of Homo sapiens with 36 samples.

Results

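ZBTB genes encode transcription factors with a BTB domain at one end and C2H2 zinc fingers at the other. They were taken here as every protein-coding entry of the count table whose symbol is ZBTB followed by a number. This gave 42 genes of 61805 entries with a gene identifier. ZBTB8OS matches that pattern but is named for lying opposite ZBTB8A, and its protein belongs to the tRNA ligase complex and has no zinc fingers, so it is counted here by name only. The study measured polyA RNA in human prostate cancer cells: LNCaP, a line that responds to androgen and came from a metastasis in a lymph node, and 42D, an enzalutamide-resistant line of LNCaP origin. In LNCaP there were 4 lines, named in the labels NT3, sgT33-5, sgT33-5_MC_C2 and sgT33-5_MC_F2 (C2 and F2 below), and in 42D there were NT3 and sgT33-5. The labels do not spell these names out, and they do not say whether C2 and F2 are each 1 clone. Lines with sgT33-5 in their name are called guide lines here, and NT3 is taken as their control. Every line was kept for 3 days in hormone-stripped serum and then given DMSO, the solvent, or 5 nM R1881, a synthetic androgen, for 6 h. This made 12 groups of 3 libraries. The labels do not say whether the 3 libraries of a group came from separate cultures, so p-values measure the spread between these libraries, which may be technical.

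The BTB domain pairs such proteins and gives a surface for the corepressors NCOR1, BCOR and SIN3A with their histone deacetylases, and in some members for the ubiquitin ligase scaffold CUL3. The zinc fingers read the DNA sequence, so most members that have been studied act as repressors at chosen genes. The family is best known from blood cells: ZBTB16 (PLZF) is the partner of the retinoic acid receptor in a fusion of acute promyelocytic leukemia, ZBTB7B (ThPOK) sets the CD4 T cell lineage, and ZBTB7A (LRF) silences fetal globin. In prostate cells ZBTB16 is a known androgen-induced gene. TRIM33, the gene in the study's title, encodes a ubiquitin ligase of chromatin.

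The libraries held 13900744 to 19793268 counts. TRIM33, the check of the labels, stood below its NT3 control in each guide line, by 0.96 to 1.57 on the log2 scale in LNCaP and by 0.52 to 0.55 in 42D, and passed the test in each of these comparisons. Its transcript was still present in every guide line, at a mean of 35.1 counts per 1000000 (CPM) or more, so it was reduced and not absent. All 10 luminal prostate markers reached 1 CPM in both lines and none of the 4 basal or 6 leukocyte markers did. Of 5 fibroblast markers 2 did in both lines, led by COL1A1 at 27.4 CPM in LNCaP and 25.0 in 42D. Of 3 endothelial markers 1 did in LNCaP (VWF, 15.4 CPM) and 0 in 42D, with a summed level of 7.93 to 22.8 CPM and of 0.418 to 1.67 CPM, and the part of these markers in differences between the lines was not tested. The share of counts from mitochondrial genes was 2.14% and 2.40% in 2 libraries, sgT33-5 with DMSO replicate 3 and sgT33-5 with R1881 replicate 1 in LNCaP, against 4.16% or more in all other LNCaP libraries. In 42D it ran from 2.94% to 4.59%. The part of this share in the results was not tested beyond leaving those 2 libraries out.

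Levels were compared between genes as CPM per kilobase of exon, averaged over all 36 libraries. Of the 42 genes, 8 had a mean of at least 10 CPM per kb, 30 lay between 1 and 10, and 4 lay under 1. The highest was ZBTB7B at 45.4 CPM per kb, followed by ZBTB33 (Kaiso, a reader of methylated DNA) at 18.1, ZBTB16 at 17.2, ZBTB43 at 15.3 and ZBTB1, which is required for lymphocyte development, at 14.2. At the low end were ZBTB7C, ZBTB20, ZBTB8B and ZBTB32, a repressor of immune cells that gave 12 counts in all 36 libraries together. ZBTB32 was therefore never tested, and ZBTB8B was tested only in fits that held 42D, which left 40 genes in the LNCaP fit and 41 in the 42D fit and in the fit of all libraries. Over the 38 genes at 1 CPM per kb or more, the ratio of the highest to the lowest group mean had a median of 1.48, and it was under 1.5 for 21 of them. It reached 12.1 for ZBTB16, 6.43 for ZBTB10, 5.85 for ZBTB18, 5.60 for ZBTB43 and 3.32 for ZBTB34, and lay between 2.13 and 2.76 for ZBTB24, ZBTB47, ZBTB17 and ZBTB12.

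**Figure D1:**
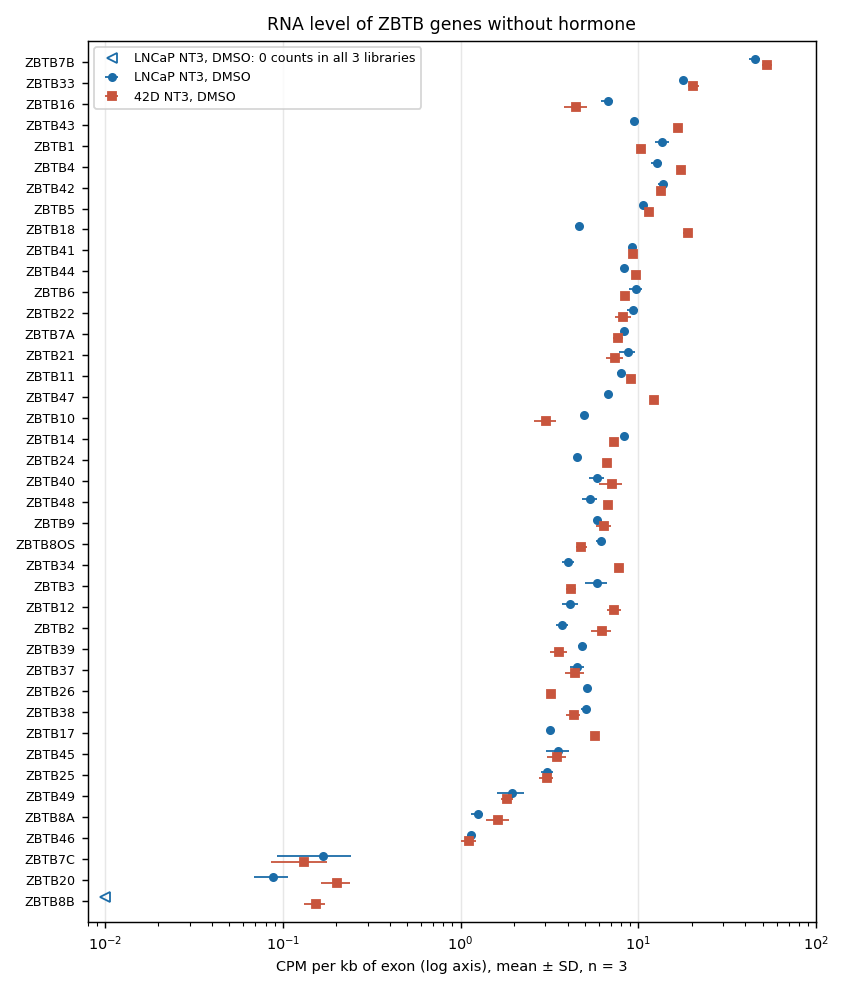
Level of 41 ZBTB genes in the NT3 line without hormone, in CPM per kb of exon on a log axis, as the mean ± SD of 3 libraries for LNCaP (blue circles) and 42D (red squares), with genes ordered by their mean over all 36 libraries. ZBTB7B is the highest gene in both lines, and ZBTB18 and ZBTB8B are the genes that stand farthest apart between them; the open triangle marks ZBTB8B at 0 counts in LNCaP.

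R1881 raised 6 ZBTB genes and lowered 2 in at least 4 of the 6 lines, with the same direction in every line where a gene was called (adjusted p under 0.05 over all genes tested, edgeR). ZBTB16, ZBTB10, ZBTB24 and ZBTB1 rose in all 6 lines, ZBTB8A in 5 and ZBTB44 in 4, while ZBTB43 and ZBTB34 fell in all 6. Of the 40 genes tested in all 6 comparisons, these were 15.0% higher and 5.00% lower in 4 or more, beside 5.60% and 3.38% of all 14417 genes tested in all 6. In LNCaP NT3, 12 of 40 ZBTB genes were called (8 higher, 4 lower), or 30.0%, where 13.2% of all genes were called, 8% higher and 5.15% lower. In LNCaP sgT33-5 there were 10 (6 higher, 4 lower), where 12.5% of all genes were called, 6.78% higher and 5.7% lower. C2 gave 9 (5 higher, 4 lower), where 5.66% of all genes were called, 3.6% higher and 2.06% lower. F2 also gave 9 (6 higher, 3 lower), where 10.4% of all genes were called, 6.4% higher and 3.98% lower. In 42D NT3, 18 of 41 were called (10 higher, 8 lower), where 25.3% of all genes were called, 13.9% higher and 11.4% lower. In 42D sgT33-5 it was 14 (8 higher, 6 lower), where 27.3% of all genes were called, 14.1% higher and 13.2% lower. The median log2 fold change of the tested ZBTB genes lay between -0.02 and 0.05 in these comparisons, where the median of all genes lay between -0.015 and -0.001. The count fell to 5 in C2 without C2 DMSO replicate 1, to 11 in 42D NT3 without 42D NT3 DMSO replicate 3, and to 6 in LNCaP sgT33-5 without the 2 libraries of low mitochondrial share.

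**Figure D2:**
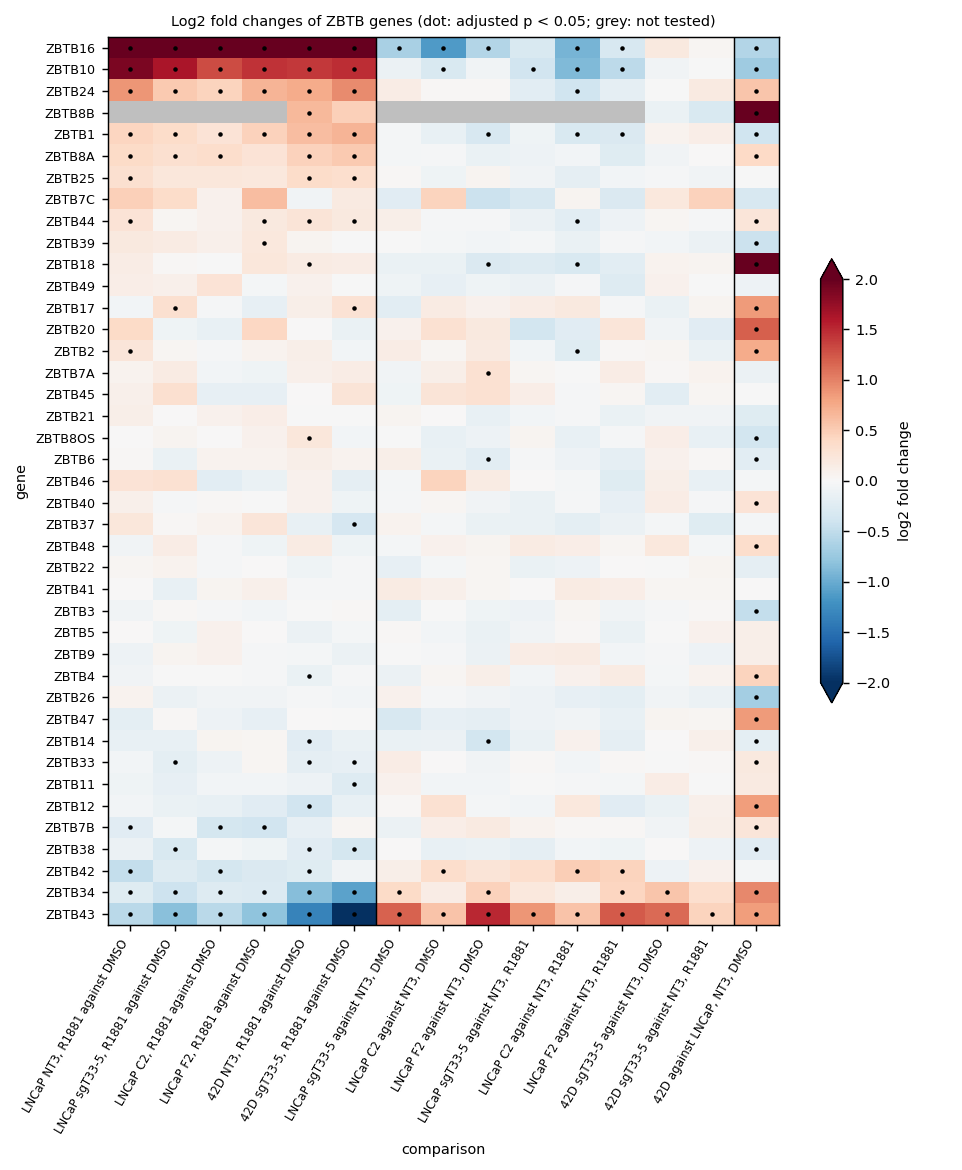
Log2 fold changes of 41 ZBTB genes (rows) in the 6 hormone comparisons, the 8 comparisons of a guide line with NT3 and the comparison of 42D with LNCaP (columns, split by vertical lines), with colours limited to ± 2, a dot where the adjusted p was under 0.05 and grey where the gene was not tested. ZBTB16, ZBTB10 and ZBTB24 head the hormone columns, ZBTB43 and ZBTB34 close them, and ZBTB43 is the only row with a dot in all 15 columns.

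ZBTB16 had the largest hormone response of the family. In LNCaP NT3 it stood at 45.2, 39.1 and 44.3 CPM with DMSO and at 229, 232 and 243 CPM with R1881. In LNCaP sgT33-5 the DMSO libraries held 28.4, 25.6 and 27.8 CPM and the R1881 libraries 164, 192 and 213 CPM. C2 held the lowest levels, 18.8, 20.8 and 18.5 CPM without and 104, 121 and 145 CPM with hormone. Every R1881 library of a line thus lay far above every DMSO library of that line. F2 gave 26.9, 28.6 and 29.7 CPM with DMSO and 165, 197 and 204 CPM with R1881. In 42D NT3 the values were 29, 24.1 and 32.7 CPM and 208, 168 and 219 CPM, and in 42D sgT33-5 they were 33.2, 32.0 and 32.6 CPM and 202, 197 and 216 CPM. The groups with and without hormone did not overlap in any line. The fitted rise was 5.44-fold in LNCaP NT3 (log2 2.44 ± 0.11 SE, adjusted p = 1.02e-13), 6.91-fold in sgT33-5, 6.32-fold in C2, 6.58-fold in F2, 7.01-fold in 42D NT3 and 6.28-fold in 42D sgT33-5. The gene lies on chromosome 11 from 114059041 to 114256765 (GRCh38), and an antisense transcript, AP002518.2, overlaps it. The libraries were stranded, but whether strand was used in counting is not given in the sources used here.

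ZBTB10, known as a repressor of genes for Sp factors, was the second-strongest riser. Its values in LNCaP NT3 were 51.0, 48.2 and 51.4 CPM with DMSO and 187, 185 and 189 CPM with R1881. In sgT33-5 they were 45.8, 42.9 and 49.5 and 128, 135 and 168 CPM, in C2 39.7, 38.1 and 44.4 and 100.1, 95.2 and 109 CPM, and in F2 43.6, 47.6 and 51.4 and 118, 136 and 137 CPM. The levels without hormone were close in the 4 LNCaP lines, and the R1881 levels spread from 95.2 to 189 CPM. In 42D both levels were lower, at 31.1, 26.2 and 34.8 and 80.7, 76.1 and 85.1 CPM in NT3 and 31.9, 25.3 and 30.1 and 81.2, 74.5 and 87.1 CPM in sgT33-5. No line's groups overlapped. The rise was 3.7-fold in LNCaP NT3 (log2 1.89 ± 0.09 SE, adjusted p = 4.11e-14) and 2.48-fold to 3.1-fold in the other 5 lines. ZBTB10 lies on chromosome 8 from 80485619 to 80526265 and is overlapped by the antisense transcript AC009812.1.

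ZBTB24, whose loss causes an immunodeficiency with unstable centromeres, rose by less. With DMSO its libraries held 25.7, 24.9 and 24.5 CPM in LNCaP NT3, 28.3, 26.3 and 28.0 in sgT33-5, 24.5, 24.1 and 27.6 in the C2 line and 28.0, 23.7 and 24.4 in F2. With R1881 they held 45.0, 50.9 and 43.2 CPM in LNCaP NT3, 36.9, 41.5 and 41.2 in sgT33-5, 31.4, 35.7 and 37.4 in the C2 line and 37.8, 40.5 and 44.1 in F2. In 42D they went from 38.0, 35.7 and 36.4 to 58.7, 65.4 and 57.5 CPM in NT3 and from 35.4, 37.8 and 35.2 to 70.3, 65.5 and 71.7 CPM in sgT33-5. The 4 LNCaP lines started from nearly the same level, and the groups with and without hormone did not overlap in any of the 6 lines. The log2 fold change was 0.88 ± 0.08 (SE) in LNCaP NT3 (adjusted p = 5.79e-09) and 0.45 to 0.94 in the others. ZBTB24 shares part of its locus with MICAL1 on the same strand, where reads of both genes can be hard to assign.

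ZBTB1 had DMSO values of 71.1, 78.7 and 66.5 CPM in LNCaP NT3, 67.3, 77.0 and 66.3 in sgT33-5, 62.3, 65.3 and 67.0 in the C2 line and 54.9, 61.6 and 56.6 in F2. R1881 values were 90.6, 108 and 94.7 CPM, 86.5, 94.7 and 93.0 CPM, 79.0, 80.2 and 76.5 CPM and 74.7, 82.8 and 82.3 CPM in the same order. In 42D it went from 53.8, 57.4 and 53.5 to 79.0, 84.1 and 85.9 CPM in NT3 and from 53.6, 59.8 and 58.7 to 91.6, 95.3 and 89.0 CPM in sgT33-5. Its groups did not overlap in any line, but the change was small: log2 0.43 ± 0.07 (SE, adjusted p = 5.97e-05) in LNCaP NT3, 0.27 at the lowest in the C2 line and 0.68 at the highest in 42D sgT33-5. In C2 the call ended without LNCaP C2 DMSO replicate 1 or LNCaP C2 R1881 replicate 2 (adjusted p from 0.0810 to 0.103). ZBTB1 and ZBTB25 lie head to head on chromosome 14 and overlap by 1502 bases. ZBTB25 was higher in LNCaP NT3 (0.32 ± 0.09 SE), 42D NT3 (0.37 ± 0.08) and 42D sgT33-5 (0.34 ± 0.08), so without strand in the counting part of either value could belong to the other gene. The LNCaP NT3 call of ZBTB25 ended without LNCaP NT3 DMSO replicate 2 or LNCaP NT3 R1881 replicate 3 (adjusted p from 0.0855 to 0.0944).

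ZBTB8A stayed at a low level. Its DMSO libraries held 9.18, 9.26 and 8.03 CPM in LNCaP NT3, 9.31, 8.33 and 8.12 in sgT33-5, 8.62, 8.37 and 8.96 in the C2 line and 7.98, 7.26 and 8.88 in F2, and its R1881 libraries 10.7, 11.1 and 13.1, then 10.2, 10.6 and 11.6, then 12.1, 11.1 and 10.2, then 9.76, 9.57 and 10.1 in that order. In 42D NT3 it went from 12.2, 9.59 and 12.8 to 17.1, 14.5 and 15.4 CPM and in 42D sgT33-5 from 12.7, 10.5 and 9.85 to 15.4, 15.0 and 17.2 CPM. No R1881 group overlapped its DMSO group. The call was made everywhere except in F2 (0.27 ± 0.10 SE, adjusted p = 0.108), with log2 fold changes from 0.33 in LNCaP sgT33-5 to 0.52 in 42D sgT33-5. The LNCaP calls did not withstand leaving out single libraries. In NT3 the call ended without LNCaP NT3 DMSO replicate 3 or LNCaP NT3 R1881 replicate 3 (adjusted p from 0.0778 to 0.108). In sgT33-5 it ended without LNCaP sgT33-5 DMSO replicate 2, LNCaP sgT33-5 DMSO replicate 3, LNCaP sgT33-5 R1881 replicate 2 or LNCaP sgT33-5 R1881 replicate 3 (adjusted p from 0.0742 to 0.136). There it also ended with DESeq2 and every library kept (adjusted p = 0.0678). In C2 it ended without LNCaP C2 DMSO replicate 1, LNCaP C2 DMSO replicate 2, LNCaP C2 R1881 replicate 1 or LNCaP C2 R1881 replicate 2 (adjusted p from 0.0877 to 0.147). The log2 fold change stayed between 0.281 and 0.442 in all alternatives of these lines. ZBTB8A overlaps ZBTB8OS on the other strand by 5770 bases, and a readthrough entry, AL033529.1, runs over both.

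ZBTB44 gave 90.2, 91.8 and 90.8 CPM in LNCaP NT3 with DMSO, 96.3, 101 and 97.6 in sgT33-5, 88.0, 87.3 and 92.3 in the C2 line and 85.6, 91.6 and 90.2 in F2. With R1881 the 4 lines gave 109.9, 109 and 112, then 92.7, 101 and 109.9, then 93.5, 95.7 and 95.3, then 94.1, 103 and 111 CPM. In 42D NT3 it went from 108, 102 and 112 to 125, 122 and 135 CPM and in 42D sgT33-5 from 101, 115 and 115 to 119, 123 and 136 CPM. In LNCaP sgT33-5 the groups overlapped. The gene was called in LNCaP NT3 (0.27 ± 0.06 SE, adjusted p = 0.000984), F2 (0.19 ± 0.06), 42D NT3 (0.26 ± 0.06) and 42D sgT33-5 (0.20 ± 0.06), and not in LNCaP sgT33-5 (0.03 ± 0.06) or C2 (0.08 ± 0.06). The F2 call ended without LNCaP F2 DMSO replicate 1, LNCaP F2 DMSO replicate 3, LNCaP F2 R1881 replicate 2 or LNCaP F2 R1881 replicate 3 (adjusted p from 0.0573 to 0.204), and the 42D sgT33-5 call without 42D sgT33-5 DMSO replicate 1 or 42D sgT33-5 R1881 replicate 3 (adjusted p from 0.0875 to 0.0935).

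The 2 genes that R1881 lowered in every line are neighbours. ZBTB43 (chromosome 9, 126805006 to 126838210, GRCh38) and ZBTB34 (126860639 to 126885878) lie on the same strand with 22.4 kb between them. An entry of the count table without a name starts at 126819282, inside ZBTB43. Both belong to the less studied members of the family. RefSeq promoter windows (GRCh38.p14) were available for 36 of the 42 genes, not for ZBTB6, ZBTB10, ZBTB16, ZBTB17, ZBTB40 or ZBTB41. The 250 bases before each RefSeq start of this pair are printed because both genes fell with R1881 in all 6 lines. They run 5′ to 3′ on the plus strand, chr9:126804790-126805039 for ZBTB43 and chr9:126860389-126860638 for ZBTB34. Capitals mark the best-scoring match without gaps between these bases of the pair, in which mismatches were allowed at a penalty.
ZBTB43: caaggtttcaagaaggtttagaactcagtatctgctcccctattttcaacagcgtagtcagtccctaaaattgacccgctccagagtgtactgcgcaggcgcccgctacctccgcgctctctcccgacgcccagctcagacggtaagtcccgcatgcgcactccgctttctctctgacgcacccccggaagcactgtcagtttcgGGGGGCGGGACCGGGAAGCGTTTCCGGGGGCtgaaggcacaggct
ZBTB34: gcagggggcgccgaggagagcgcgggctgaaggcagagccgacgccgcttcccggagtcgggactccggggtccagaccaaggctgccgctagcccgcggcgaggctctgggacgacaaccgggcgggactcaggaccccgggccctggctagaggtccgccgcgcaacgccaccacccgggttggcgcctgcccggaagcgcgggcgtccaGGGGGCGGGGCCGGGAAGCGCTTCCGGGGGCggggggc
The stretch is 31 bases long and 29 of them are identical, with the substitutions A10G and T21C (position counted from the 5′ end of the stretch, the base of ZBTB43 first). It lies 45 to 15 bases before the start in ZBTB43 and 38 to 8 bases before it in ZBTB34. Searched as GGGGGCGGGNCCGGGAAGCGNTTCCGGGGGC on both strands, it occurred in 2 of 35116 RefSeq promoter windows of 300 bases, those of ZBTB43 and ZBTB34, or 0.0057%. The searched pattern was built from the windows of this pair, so these 2 matches were fixed in advance. The search shows only that the other windows did not hold it. The stretch contains a GC box, GGGCGG, which 43 of the 70 windows of ZBTB genes held (61.4%, against 45.0% of all windows). The GC content of the printed bases was 60% for ZBTB43 and 78.0% for ZBTB34.

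The full androgen response element (AGAACA, 3 bases of any kind, then TGTTCT) was found in 0 of the 70 windows of ZBTB genes and in 0.00285% of all windows. Its single arm AGAACA was found in 10 of the 70 (14.3%, against 14.8% of all windows), the TATA box TATAAA in 6 (8.57%, against 11.5%) and the E box CACGTG in 9 (12.9%, against 7.26%). Of the genes that R1881 moved in 4 or more lines and that had a window, ZBTB24 and ZBTB1 held the E box, and none held the single arm. The search read both strands, and the single arm is part of the full element. These are matches of letters in 300 bases and say nothing of sites farther away.

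ZBTB43 fell with R1881 in every library set. In LNCaP NT3 it went from 64.2, 69.1 and 66.2 CPM to 44.8, 47.1 and 45.9 CPM, and in sgT33-5 from 138, 155 and 159 to 79.2, 89.6 and 85.3 CPM. In C2 it went from 95.3, 91.0 and 109 to 64.3, 65.2 and 74.0 CPM and in F2 from 158, 209 and 196 to 92.1, 117 and 115 CPM. In 42D NT3 it went from 121, 112 and 122 to 50.1, 46.5 and 42.2 CPM and in 42D sgT33-5 from 258, 270.3 and 242 to 67.8, 65.9 and 56.0 CPM. No groups overlapped within a line, and the DMSO level differed widely between lines while the R1881 level of 42D NT3 came close to that of LNCaP NT3. The fall was 1.46-fold in LNCaP NT3 (log2 -0.54 ± 0.10 SE, adjusted p = 0.000475), 1.79-fold in sgT33-5, 1.46-fold in C2, 1.75-fold in F2, 2.52-fold in 42D NT3 (adjusted p = 7.69e-11) and 4.05-fold in 42D sgT33-5 (adjusted p = 8.79e-14).

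ZBTB34 moved the same way by less. LNCaP NT3 gave 28.2, 27.6 and 24.1 CPM with DMSO and 23.0, 21.7 and 23.4 CPM with R1881, and sgT33-5 gave 35.5, 34.3 and 34.1 and 27.3, 25.8 and 25.5 CPM. C2 gave 30.1, 27.2 and 30.7 and 25.2, 24.4 and 24 CPM, and F2 35.4, 38.5 and 35.9 and 30.6, 30.4 and 30.5 CPM. 42D NT3 gave 53.1, 49.3 and 52.5 and 29.2, 28.2 and 27.4 CPM, and 42D sgT33-5 82.7, 75.7 and 68.1 and 38.8, 34.7 and 33.7 CPM. The gap between treatments was narrow in LNCaP and wide in 42D, and groups did not overlap in any line. Log2 fold changes were -0.24 ± 0.07 (SE, adjusted p = 0.0201) in LNCaP NT3, -0.41 ± 0.07 in sgT33-5, -0.26 ± 0.07 in C2, -0.27 ± 0.06 in F2, -0.85 ± 0.07 in 42D NT3 and -1.08 ± 0.07 in 42D sgT33-5 (adjusted p = 5.25e-11). The LNCaP NT3 call ended without LNCaP NT3 DMSO replicate 1, LNCaP NT3 DMSO replicate 2 or LNCaP NT3 R1881 replicate 2 (adjusted p from 0.0999 to 0.145), and the C2 call without LNCaP C2 DMSO replicate 1, LNCaP C2 DMSO replicate 3, LNCaP C2 R1881 replicate 2 or LNCaP C2 R1881 replicate 3 (adjusted p from 0.0511 to 0.128).

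**Figure D3:**
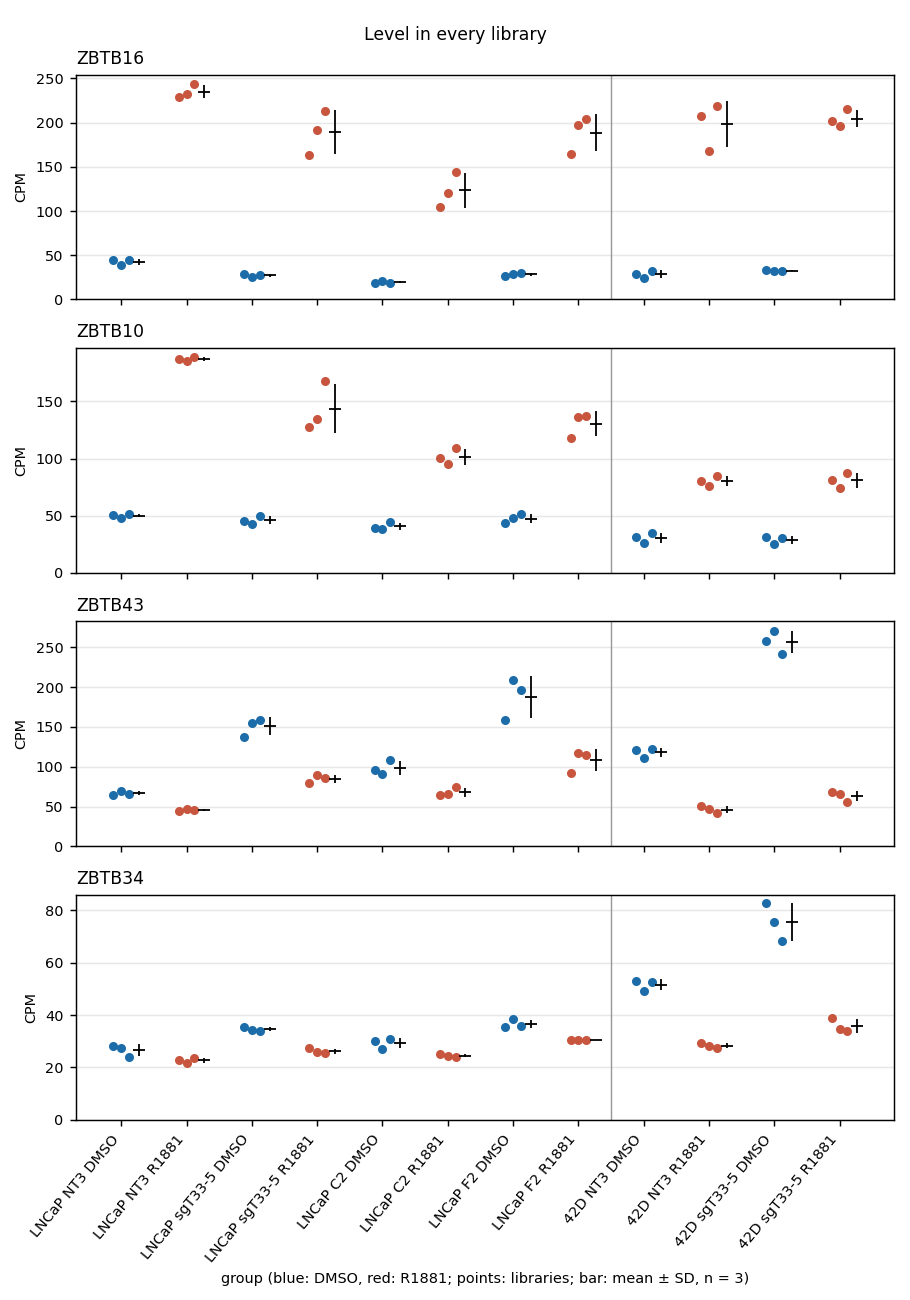
CPM of ZBTB16, ZBTB10, ZBTB43 and ZBTB34 in each of the 36 libraries (points; blue DMSO, red R1881) by group, with the mean ± SD of 3 libraries in black and a vertical line between LNCaP and 42D. R1881 libraries lie above DMSO libraries for ZBTB16 and ZBTB10 and below them for ZBTB43 and ZBTB34 in every line, and the DMSO level of ZBTB43 is higher in each guide line than in its NT3 control.

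The remaining calls were smaller and changed from line to line. ZBTB7B, the most abundant member per kb, was lower in LNCaP NT3 (-0.23 ± 0.07 SE), C2 (-0.35 ± 0.07) and F2 (-0.39 ± 0.07), and its values in 42D were -0.16 ± 0.07 in NT3 and 0.03 ± 0.07 in sgT33-5, neither called; in 42D NT3, where the replicate numbers paired the libraries, it was called with the replicate as a block (log2 fold change -0.16, adjusted p = 0.00218). ZBTB42, whose mutation causes a congenital contracture syndrome, was lower in LNCaP NT3 (-0.48 ± 0.10), C2 (-0.35 ± 0.10) and 42D NT3 (-0.24 ± 0.06), and in F2, paired as well, it was called with the block (-0.295, adjusted p = 0.000378). ZBTB33 and ZBTB38, related readers of methylated DNA, were both lower in LNCaP sgT33-5 (-0.19 ± 0.05 and -0.31 ± 0.07), 42D NT3 (-0.18 ± 0.06 and -0.23 ± 0.07) and 42D sgT33-5 (-0.16 ± 0.06 and -0.35 ± 0.07). ZBTB17 (MIZ1, the partner through which MYC represses genes) was higher in LNCaP sgT33-5 (0.33 ± 0.10) and 42D sgT33-5 (0.29 ± 0.08). Called in 1 line each were ZBTB2 (0.24 ± 0.08) in LNCaP NT3, ZBTB39 (0.22 ± 0.07) in F2, ZBTB12 (-0.38 ± 0.11), ZBTB14 (-0.22 ± 0.07), ZBTB8B (0.64 ± 0.22), ZBTB8OS (0.23 ± 0.08), ZBTB18 (0.17 ± 0.06) and ZBTB4 (-0.13 ± 0.05) in 42D NT3, and ZBTB37 (-0.34 ± 0.07) and ZBTB11 (-0.26 ± 0.07) in 42D sgT33-5. The last 2 calls, and those of ZBTB42 in LNCaP NT3, ZBTB38 in 42D sgT33-5 and ZBTB7B in C2 and F2, held without any 1 library. Each other call without the block in this paragraph ended without at least 1 of the 6 libraries compared, except that of ZBTB38 in LNCaP sgT33-5, which ended without the 2 libraries of low mitochondrial share (adjusted p = 0.0773). Where the numbers paired the libraries, the block also brought calls for ZBTB25 in F2 (0.20, adjusted p = 0.0179), ZBTB48 in 42D NT3 (0.16, 0.0416), and ZBTB18 (0.15, 0.00718) and ZBTB7A (0.155, 0.0159) in 42D sgT33-5. At least 1 hormone comparison was called for 24 of the 41 tested genes, and for 37.5% of all genes tested. The 17 never called with hormone without the block included ZBTB7A, ZBTB20, ZBTB26, ZBTB40, ZBTB47 and ZBTB48.

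The comparison of each guide line with NT3 shows how these genes stand in lines where TRIM33 RNA is reduced. All guide lines carry sgT33-5 in their names, and each was set against the NT3 line of its cell line. The reduced TRIM33 and anything else that sets a guide line apart from NT3 cannot be told apart here. ZBTB43 was higher in all 4 guide lines at both treatments, and ZBTB16 was lower without hormone in the 3 LNCaP guide lines. The 3 LNCaP guide lines share the same NT3 controls, so their comparisons are not independent of each other. Without hormone, 3 of 40 ZBTB genes were called in LNCaP sgT33-5 (2 higher, 1 lower), where 1.4% of all genes were called, 0.509% higher and 0.889% lower. C2 had 4 (2 higher, 2 lower), where 18.2% of all genes were called, 8.53% higher and 9.63% lower. F2 had 8 (3 higher, 5 lower), where 16.7% of all genes were called, 8.94% higher and 7.73% lower. In 42D sgT33-5 there were 2 of 41, both higher, where 1.13% of all genes were called, 0.896% higher and 0.234% lower. In percent of the tested ZBTB genes these were 7.5%, 10.0%, 20% and 4.88%. With R1881 the count was 2 in LNCaP sgT33-5 (1 higher, 1 lower), where 3.04% of all genes were called, 0.979% higher and 2.06% lower. It was 9 in C2 (2 higher, 7 lower), where 23% of all genes were called, 9.67% higher and 13.3% lower, and 6 in F2 (3 higher, 3 lower), where 13.4% of all genes were called, 6.19% higher and 7.26% lower. In 42D sgT33-5 with R1881 it was 1, higher, where 0.513% of all genes were called, 0.396% higher and 0.117% lower. In C2 and F2 the shares lay near or under those of all genes. With DMSO the median mitochondrial share was 6.06% in LNCaP NT3 and 4.97%, 5.25% and 5.17% in sgT33-5, C2 and F2, and in 42D 3.28% in NT3 and 4.44% in sgT33-5; its part in these differences was not tested.

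For ZBTB43 the libraries listed above give means of 66.5 ± 2.43 CPM (SD, n = 3) in LNCaP NT3 without hormone, against 151 ± 11.3 in sgT33-5, 98.3 ± 9.20 in the C2 line and 188 ± 26.5 in F2. No guide library reached down to the NT3 libraries. The gene was 2.27-fold higher in sgT33-5 (adjusted p = 6.38e-08), 1.48-fold in C2 (adjusted p = 0.000229) and 2.83-fold in F2 (adjusted p = 1.80e-10). With R1881 it was 1.85-fold higher in sgT33-5, 1.48-fold in the C2 line and 2.35-fold in F2. In 42D it was 2.18-fold higher without hormone (log2 1.13 ± 0.07 SE, adjusted p = 5.35e-08) and 1.36-fold higher with R1881 (0.44 ± 0.07, adjusted p = 0.00649). That last call ended without 42D sgT33-5 R1881 replicate 2 (adjusted p = 0.0514), where the count of called ZBTB genes was 0. C2, which had the lowest TRIM33 RNA level, had the smallest ZBTB43 difference of the LNCaP guide lines. RNA counts do not give the level of TRIM33 protein. Whether the lines differ from each other in the ZBTB43 difference was not tested, nor was a relation to TRIM33.

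ZBTB34, its neighbour, was higher without hormone in LNCaP sgT33-5 (0.38 ± 0.07 SE, adjusted p = 0.00165), F2 (0.46 ± 0.07, adjusted p = 1.80e-05) and 42D sgT33-5 (0.56 ± 0.07, adjusted p = 5.45e-05), and stood at 0.14 ± 0.07 (adjusted p = 0.145) in C2, where the libraries overlapped those of NT3. With R1881 it was called in F2 (0.42 ± 0.07, adjusted p = 8.21e-05), and its values were 0.21 ± 0.07 in sgT33-5 and 0.12 ± 0.07 in C2. In 42D with R1881 it was 0.33 ± 0.08 (adjusted p = 0.0557). With the replicate number as a block, fitted over all 42D libraries, ZBTB34 passed (log2 fold change 0.33, adjusted p = 0.00111). Same-numbered libraries of the groups compared deviated together, but not all groups in that fit were taken as paired. With the block the count of called ZBTB genes in this comparison was 2 in place of 1. The count there was also 2 without 42D sgT33-5 R1881 replicate 3.

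Since both genes fell with R1881 in every line, the other genes within 500 kb of it were read as well, a window chosen after these values were seen. It held 5 other tested entries in LNCaP and 4 in 42D: MVB12B, LMX1B, RALGPS1, GARNL3 and, in LNCaP, the entry without a name inside ZBTB43. LMX1B, a homeobox gene of limb and kidney development that lies before ZBTB43, was lower with R1881 in all 6 lines, from -0.41 in C2 to -0.96 in 42D sgT33-5 on the log2 scale. It was higher than in NT3 in C2 and F2 at both treatments and in 42D sgT33-5 without hormone (0.53 ± 0.06 SE, adjusted p = 5.46e-05). RALGPS1, which lies after ZBTB34, was lower with R1881 in LNCaP sgT33-5 (-0.31) and in both 42D lines (-0.43 in NT3 and -0.55 in sgT33-5). Across the 6 hormone comparisons 1 to 3 of the other entries were called lower and 0 higher. Of all genes, 2.06% to 13.2% were called lower there. Across the 8 guide comparisons 0 to 3 were called higher and 0 lower. Of all genes, 0.396% to 9.67% were called higher there. In F2 without hormone 1 of the 3 was the entry inside ZBTB43. No other entry was called in LNCaP sgT33-5 at either treatment or in 42D sgT33-5 with R1881, though ZBTB43 was higher in each. The pair was therefore not alone in falling with R1881 along this stretch of chromosome 9. Calls of other entries against NT3 varied with line and treatment. Whether neighbours moved together more than other genes was not tested.

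ZBTB16 without hormone had a mean of 42.8 ± 3.31 CPM (SD, n = 3) in LNCaP NT3, 27.3 ± 1.48 in sgT33-5, 19.4 ± 1.24 in the C2 line and 28.4 ± 1.39 in F2, with every guide library under every NT3 library. It was 1.57-fold lower in sgT33-5 (adjusted p = 0.00312), 2.2-fold lower in C2 (adjusted p = 3.19e-07) and 1.51-fold lower in F2 (adjusted p = 0.000919). With R1881 it was lower in C2 (-0.92 ± 0.10 SE, adjusted p = 2.98e-07) and F2 (-0.32 ± 0.10, adjusted p = 0.0325), and stood at -0.31 ± 0.10 (adjusted p = 0.0976) in sgT33-5. The F2 call ended without LNCaP F2 R1881 replicate 1, LNCaP F2 R1881 replicate 2, LNCaP NT3 R1881 replicate 1, LNCaP NT3 R1881 replicate 2 or LNCaP NT3 R1881 replicate 3 (adjusted p from 0.0512 to 0.198). In 42D the libraries of sgT33-5 and NT3 overlapped, at 0.19 ± 0.12 without and 0.04 ± 0.09 with hormone; a difference between the guide's effect in LNCaP and in 42D was not tested.

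ZBTB10 was lower in all 3 LNCaP guide lines with R1881, at -0.38 ± 0.08 (log2, SE, adjusted p = 0.0102) in sgT33-5, -0.88 ± 0.08 (adjusted p = 1.71e-08) in the C2 line and -0.52 ± 0.08 (adjusted p = 8.66e-05) in F2. Without hormone it was called in C2 (-0.30 ± 0.09) and not in sgT33-5 (-0.12 ± 0.09) or F2 (-0.07 ± 0.09). In 42D it was -0.07 ± 0.11 without and -0.00 ± 0.09 with hormone, with overlapping libraries. The sgT33-5 call ended without LNCaP sgT33-5 R1881 replicate 1 or LNCaP sgT33-5 R1881 replicate 2 (adjusted p from 0.0635 to 0.0877), which left 1 called ZBTB gene in that comparison; without LNCaP sgT33-5 R1881 replicate 3 there were 4. The groups of this comparison were taken as paired, though not all groups of the LNCaP fit were. With the replicate block 6 were called (2 higher, 4 lower). They were ZBTB43, ZBTB10, ZBTB42 at 0.34 (adjusted p = 0.000636), ZBTB16 at -0.31 (0.0130), ZBTB18 at -0.26 (0.0326) and ZBTB38 at -0.18 (0.0265). The C2 call without hormone ended without LNCaP C2 DMSO replicate 1, LNCaP C2 DMSO replicate 2, LNCaP NT3 DMSO replicate 1 or LNCaP NT3 DMSO replicate 3 (adjusted p from 0.0595 to 0.0980).

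ZBTB42, which R1881 lowered, was higher in the guide lines with R1881 in C2 (0.49 ± 0.10 SE, adjusted p = 0.00113) and F2 (0.44 ± 0.10, adjusted p = 0.00505), and in C2 without hormone (0.36 ± 0.10, adjusted p = 0.0141). Its R1881 libraries held 38.8, 43.7 and 33.4 CPM in NT3, 49.7, 59.0 and 53.3 in the C2 line and 55.4, 57.6 and 44.5 in F2, and those of NT3 lay lowest. The C2 call without hormone ended without LNCaP C2 DMSO replicate 2, LNCaP NT3 DMSO replicate 1 or LNCaP NT3 DMSO replicate 3 (adjusted p from 0.0623 to 0.0913), and there the count of called ZBTB genes fell from 4 to 2 without C2 DMSO replicate 2, NT3 DMSO replicate 1 or NT3 DMSO replicate 3. ZBTB24 (-0.41 ± 0.08), ZBTB1 (-0.31 ± 0.07), ZBTB18 (-0.30 ± 0.10), ZBTB2 (-0.23 ± 0.08) and ZBTB44 (-0.21 ± 0.06) were lower in C2 with R1881, and ZBTB1 (-0.29 ± 0.07) in F2. In F2 without hormone ZBTB14 (-0.36 ± 0.07), ZBTB1 (-0.32 ± 0.07), ZBTB18 (-0.29 ± 0.10) and ZBTB6 (-0.22 ± 0.08) were lower and ZBTB7A (0.30 ± 0.08) higher. With the block, ZBTB21 (-0.15, adjusted p = 0.0249), ZBTB42 (0.26, 0.00181), ZBTB45 (0.31, 0.0306) and ZBTB7B (0.17, 0.0339) passed too in that comparison, whose groups were taken as paired. Of the calls in F2 without hormone, 5 were left without LNCaP NT3 DMSO replicate 1. ZBTB2 and ZBTB18 in C2, ZBTB18, ZBTB6 and ZBTB7A in F2 without hormone and ZBTB1 in F2 with R1881 each lost the call without at least 1 library. Over the 8 guide comparisons, 28 of 41 ZBTB genes were never called, among them ZBTB33, ZBTB38, ZBTB17, ZBTB20 and ZBTB47. The other 13 were called at least once, as were 37% of all genes tested.

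Whether the hormone response itself differed between a guide line and NT3 was tested as an interaction. Without the replicate block it was called for ZBTB10 in C2 and for ZBTB43 in 42D sgT33-5, and for no other ZBTB gene. In C2 the response of ZBTB10 was lower than in NT3, at -0.58 ± 0.12 (log2, SE, adjusted p = 0.0187), where 0.689% of all genes were called, 0.0967% higher and 0.593% lower. The call ended in 9 of the 12 fits that each left out 1 library, namely without LNCaP C2 DMSO replicate 3, LNCaP C2 R1881 replicate 1, LNCaP C2 R1881 replicate 2, LNCaP NT3 DMSO replicate 1, LNCaP NT3 DMSO replicate 2, LNCaP NT3 DMSO replicate 3, LNCaP NT3 R1881 replicate 1, LNCaP NT3 R1881 replicate 2 or LNCaP NT3 R1881 replicate 3 (adjusted p from 0.0502 to 0.116). The corresponding values of ZBTB10 were -0.26 ± 0.12 in sgT33-5 (adjusted p = 0.640) and -0.44 ± 0.12 in F2 (adjusted p = 0.589). With the replicate block in edgeR, ZBTB10 passed in F2 (-0.44, adjusted p = 0.0183) and ZBTB24 in C2 (-0.43, adjusted p = 0.0241). By the rule used here, the LNCaP NT3 libraries with and without hormone were not taken as paired. Their same-number correlations of deviations were 0.0931, 0.263 and 0.332, where more than 0.1 was needed in all 3. These block results keep that limit. In 42D sgT33-5 ZBTB43 fell further with R1881 than in NT3, with a difference of -0.68 ± 0.10 (adjusted p = 0.00806), where 0.123% of all genes were called, 0.026% higher and 0.0974% lower. This call ended without 42D NT3 R1881 replicate 2 (adjusted p = 0.0581). In LNCaP the same difference for ZBTB43 was -0.30 ± 0.14 in sgT33-5, 0.00 in the C2 line and -0.27 ± 0.14 in F2, none called. The SE is left out for the C2 line, since its formula is unstable at a fold change near 0. In LNCaP sgT33-5 and in F2, 0 of 40 ZBTB genes and 0% of all genes passed in edgeR without the block. At an unadjusted p under 0.05 there were 6 ZBTB genes in sgT33-5 (4 of them lower) and 1 in F2, and DESeq2 called 0 in both. ZBTB16, the strongest responder, had interaction values of 0.34 ± 0.15, 0.22 ± 0.15 and 0.27 ± 0.15 in the 3 LNCaP guide lines and -0.16 ± 0.16 in 42D, none of them called.

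Between the 2 cell lines, NT3 without hormone, 27 of 41 ZBTB genes were called (17 higher in 42D, 10 lower). That is 65.9%, close to the 68.1% of all genes, with a median log2 fold change of 0.01. By direction 34.8% of all genes were higher and 33.3% lower. The line and anything handled with it cannot be told apart in this comparison. The largest difference was in ZBTB8B. It had 0 counts in the 3 LNCaP NT3 DMSO libraries and 38, 26 and 29 counts in those of 42D. All 24 LNCaP libraries together held 7 counts, at most 1 in a library, and the 12 of 42D held 446. Its mean of 1.96 CPM in 42D NT3 was at least 30.4-fold higher than a floor of 3 counts over the 3 LNCaP libraries. In the other 42D groups its libraries held 3.40, 2.26 and 3.49 CPM with R1881 in NT3, and 1.47, 1.97 and 1.93 CPM with DMSO and 3.11, 2.20 and 2.11 CPM with R1881 in sgT33-5. A readthrough entry, AL033529.1, overlaps ZBTB8B on the same strand, so its reads may be shared.

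ZBTB18 (RP58), a repressor that acts in neuronal development, followed. Its LNCaP libraries with DMSO held 17.6, 17.4 and 19.2 CPM in NT3, 15.4, 16.0 and 17.9 in sgT33-5, 16.4, 15.3 and 17.4 in the C2 line and 14, 14.4 and 15.8 in F2, and those with R1881 21.8, 19.4 and 19.3, then 16.5, 15.8 and 17.9, then 14.9, 14.9 and 18.9, then 18.0, 15.6 and 18.6 CPM. In 42D NT3 it stood at 72.3, 71.4 and 79.4 CPM with DMSO and 83.9, 76.5 and 87.5 CPM with R1881, and in 42D sgT33-5 at 76.7, 78.5 and 77.6 and 80.9, 84.8 and 92.7 CPM. All 42D libraries lay above all LNCaP libraries, and ZBTB18 was 4.11-fold higher in 42D (log2 2.04 ± 0.08 SE, adjusted p = 1.80e-22). Neuroendocrine markers were read by level only, without a test between the lines. Of 6 such markers, 2 reached 1 CPM in LNCaP, where their libraries summed to between 39.4 and 89.2 CPM. Of the same 6, 4 did so in 42D, with sums between 124 and 154 CPM. ENO2 was the highest of them in each line, at 57.8 (LNCaP) and 100.2 (42D) CPM. CHGA stayed under 1 CPM in both lines, and INSM1 was at 0 in both. The part of these markers in the difference of ZBTB18 was not tested.

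ZBTB20, a repressor of fetal liver genes that also shapes the hippocampus, was low in both lines. LNCaP libraries with DMSO held 2.46, 2.44 and 3.50 CPM in NT3, 2.61, 3.12 and 3.12 in sgT33-5, 3.85, 3.18 and 3.25 in the C2 line and 2.06, 4.66 and 2.85 in F2, and with R1881 3.57, 4.12 and 3.27, then 1.41, 3.83 and 3.18, then 2.52, 4.08 and 2.77, then 2.46, 6.40 and 3.96 CPM. In 42D NT3 the values were 6.99, 5.07 and 7.17 with DMSO and 7.94, 5.18 and 6.13 CPM with R1881, and in sgT33-5 4.41, 5.56 and 8.28 and 5.12, 4.34 and 7.13 CPM. The NT3 DMSO groups did not overlap and the gene was 2.3-fold higher in 42D (adjusted p = 0.00182), but 1 library of each F2 group reached into the range of 42D. ZBTB34 was 1.94-fold higher in 42D (adjusted p = 6.61e-15) and ZBTB43 1.78-fold (adjusted p = 7.42e-09), with the library values given above. Next came ZBTB47 (0.86 ± 0.07 SE), ZBTB17 (0.85 ± 0.09), ZBTB12 (0.83 ± 0.12) and ZBTB2 (0.74 ± 0.08).

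The largest falls in 42D were those of ZBTB10, ZBTB26, ZBTB16 and ZBTB3. ZBTB10 was 1.63-fold lower (adjusted p = 5.60e-07) and ZBTB16 1.5-fold lower (adjusted p = 0.000172); both are genes that R1881 raised in all 6 lines. ZBTB26 held 24.3, 23.3 and 24.5 CPM in LNCaP NT3, 23.5, 26.8 and 25.5 in sgT33-5, 23.0, 23.8 and 23.9 in the C2 line and 22.7, 21.9 and 24 in F2 with DMSO, and 25.6, 24.6 and 25.4, then 24.6, 22.1 and 23.7, then 25.6, 19.8 and 22.1, then 21.0, 21.2 and 24 CPM with R1881. In 42D it held 15.7, 14.7 and 14.7 CPM in NT3 and 14.7, 13.6 and 14.3 in sgT33-5 with DMSO, and 17.0, 13.2 and 13.7 and 15.9, 12.8 and 12 with R1881. Every 42D library was under every LNCaP library, and the gene was 1.6-fold lower (adjusted p = 6.99e-08). It did not pass in any hormone or guide comparison. ZBTB3 held 16.9, 22.3 and 19.6, then 15.4, 18.4 and 17.2, then 15.7, 22.8 and 19.6, then 17.2, 19.1 and 18.6 CPM with DMSO in the LNCaP lines NT3, sgT33-5, C2 and F2, and 17.5, 20.7 and 17.8, then 18.0, 17.9 and 16.4, then 17.6, 21.0 and 18.6, then 17.2, 20.3 and 15.5 CPM with R1881. In 42D it held 13.1, 14.2 and 14.7 and 13.7, 13.3 and 14.1 CPM in NT3 and 14.3, 13.6 and 13.4 and 14.2, 14.7 and 13.2 CPM in sgT33-5. All its 42D libraries lay under all its LNCaP libraries, and it was 1.39-fold lower (adjusted p = 0.000308).

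**Figure D4:**
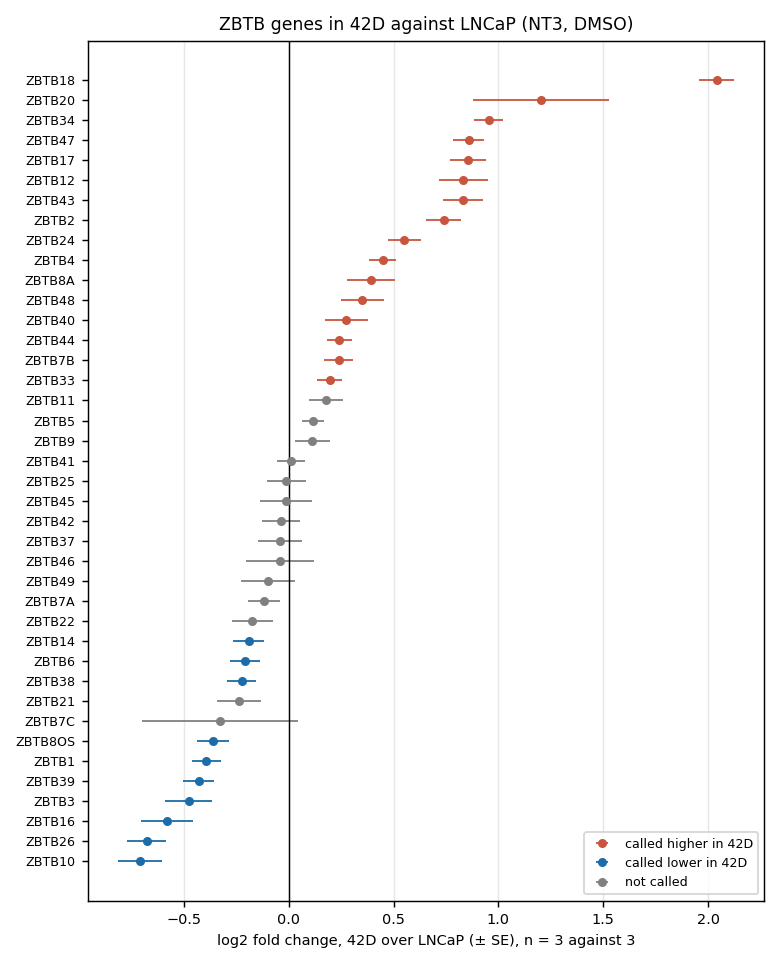
Log2 fold change of 40 ZBTB genes in 42D over LNCaP (NT3, DMSO, 3 libraries against 3), with bars of ± 1 SE; red points were called higher in 42D, blue points lower and grey points were not called. ZBTB8B, at 0 counts in these LNCaP libraries, is left out. ZBTB18 stands apart at 2.04, and ZBTB10 lies lowest at -0.71.

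The hormone response also differed between the lines for 3 ZBTB genes, all with a lower value in 42D, where 3.85% of all genes were called, 1.82% higher and 2.03% lower. ZBTB43 fell further in 42D than in LNCaP, with a difference of -0.82 ± 0.14 (log2, SE, adjusted p = 0.000274), and so did ZBTB34, at -0.64 ± 0.10 (adjusted p = 3.52e-05). ZBTB10 rose by less in 42D (-0.51 ± 0.14, adjusted p = 0.0318), a call that ended in 10 of 12 fits, without 42D NT3 DMSO replicate 1, 42D NT3 DMSO replicate 3, 42D NT3 R1881 replicate 1, 42D NT3 R1881 replicate 2, LNCaP NT3 DMSO replicate 1, LNCaP NT3 DMSO replicate 2, LNCaP NT3 DMSO replicate 3, LNCaP NT3 R1881 replicate 1, LNCaP NT3 R1881 replicate 2 or LNCaP NT3 R1881 replicate 3 (adjusted p from 0.0519 to 0.156). The calls of ZBTB43 and ZBTB34 held in each of those fits. ZBTB16 did not pass this test, at a difference of 0.34 ± 0.16 (adjusted p = 0.340).

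Beyond the named family, 12 other BTB transcription factors (9 tested in LNCaP, 11 in 42D) and 23 corepressors and partners of the BTB domain (22 tested) were listed. Of the first list, R1881 lowered 2, 2, 0 and 2 genes in LNCaP NT3, sgT33-5, C2 and F2 and raised 0, 1, 0 and 0, and in 42D it lowered 4 in NT3 and 4 in sgT33-5 and raised 2 and 1. Of all genes, 2.06% to 5.7% were lower and 3.6% to 8% higher in the LNCaP lines. In the 42D lines 11.4% to 13.2% of all genes were lower and 13.9% to 14.1% higher. MYNN (myoneurin) fell most in LNCaP (-0.59 ± 0.06 SE in NT3, adjusted p = 6.41e-08), where in C2 edgeR called none of the 9 (3 at an unadjusted p under 0.05), and BCL6, the germinal center repressor, in 42D sgT33-5 (-0.61 ± 0.07, adjusted p = 2.65e-07). BACH2, a B cell repressor, rose most, in 42D sgT33-5 (1.28 ± 0.41, adjusted p = 0.0229). The median log2 fold change of this list was -0.03 in LNCaP NT3 and -0.08 in 42D NT3, beside -0.011 and -0.003 over all genes. Of the second list, R1881 raised 4, 3, 1 and 5 genes and lowered 1, 1, 1 and 2 in the same 4 LNCaP lines, and raised 4 and 3 and lowered 4 and 5 in 42D, beside the same shares of all genes. Its median was 0.05 in LNCaP NT3 and 0.015 in 42D NT3. NCOR1, which scaffolds histone deacetylase 3, was higher in all 6 lines (0.35 ± 0.07 in LNCaP NT3), and TBL1X of the same complex rose most in 42D sgT33-5 (0.43 ± 0.04). CTBP1, another corepressor, was lower in LNCaP NT3, C2 and F2 (-0.38 ± 0.07 in F2).

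In the guide lines MYNN was the list gene with the clearest difference. Its DMSO libraries held 86.6, 76.8 and 79.1 CPM in LNCaP NT3, 57.6, 62.1 and 65.6 in sgT33-5, 33.6, 35.5 and 37.4 in the C2 line and 43.3, 44.5 and 45.4 in F2, and every guide library lay under every NT3 library. It was lower in all 6 LNCaP guide comparisons, most in C2 without hormone (-1.18 ± 0.06 SE, adjusted p = 5.47e-13). TBL1XR1 was lower in 5 of these 6 (-0.33 ± 0.04 in C2 with R1881). EZH2, the methyltransferase of Polycomb, was higher in C2 (0.43 ± 0.11 with R1881), and HDAC4 in F2 without hormone (0.41 ± 0.13). Of the first list 0 or 1 were higher and 1 or 2 lower in each LNCaP guide comparison, and of the second 0 to 2 were higher and 0 to 6 lower. Of all genes, 0.509% to 9.67% were higher and 0.889% to 13.3% lower in these comparisons. The 6 lower genes were in C2 with R1881, where the share of all genes called lower was 13.3%. Of the 33 list genes tested in 42D, edgeR called 0 between sgT33-5 and NT3 at either treatment, with 1 at an unadjusted p under 0.05 at each. Of all genes, 1.13% were called there with DMSO and 0.513% with R1881. Between 42D and LNCaP, 10 of 11 other BTB factors (5 higher, 5 lower) and 12 of 22 partners (9 higher, 3 lower) were called, where 68.1% of all genes were called, 34.8% higher and 33.3% lower. BACH2 (2.51 ± 0.79) and BCORL1 (1.22 ± 0.15) stood highest, and MYNN (-1.29 ± 0.07) and HIC2 (-0.83 ± 0.15) lowest.

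Of the 41 ZBTB genes tested, 32 were called in at least 1 of the 20 comparisons, where 82.7% of all 16564 genes tested were. The 9 that were not were ZBTB5, ZBTB7C, ZBTB9, ZBTB21, ZBTB22, ZBTB41, ZBTB45, ZBTB46 and ZBTB49. ZBTB7C was detected at under 1 CPM per kb, while ZBTB5 was among the 8 most abundant members. The part of a low level in the lack of calls was not tested.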

How the data were processed

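The authors deposited 1 table of raw counts per gene for all 36 libraries, with gene symbols, types and coordinates. Reads were handled with cutadapt and HISAT2 2.1.0 on GRCh38, per the submitters' processing notes; the counting tool and its use of strand are not given in the sources used here. An entry without a gene identifier held 0 counts and was left out. Entries with an identifier but no gene name, such as the one inside ZBTB43, were kept.

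Counts were tested with edgeR 4.0.16 (TMM, filterByExpr by group, robust quasi-likelihood F test) in R 4.3.3, separately over the 24 LNCaP libraries (15519 genes tested), the 12 of 42D (15403) and all 36 (16564). P-values were adjusted by Benjamini-Hochberg over all genes tested, with a threshold of 0.05. The SE is the fold change over the root of F, which is unstable where the log2 fold change is near 0. CPM used TMM factors over all 36 libraries, and exon lengths came from the GENCODE annotation of the same build, while the annotation behind the counts is not given in the sources used here. The LNCaP fit was tested on simulated data. DESeq2 1.42.0, RLE factors, no filter, other sample sets, a replicate block and leave-one-out were the alternatives. The block was fitted over all libraries of a fit, so it also covered groups outside the comparison that were not taken as paired.

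Library totals of 13900744 to 19793268 counts set the precision. Replicate numbers were taken to pair libraries where all 3 same-number correlations of deviations exceeded 0.1: in the hormone comparisons of LNCaP F2, 42D NT3 and 42D sgT33-5, and in F2 against NT3 with DMSO, LNCaP sgT33-5 against NT3 with R1881 and 42D sgT33-5 against NT3 with R1881, where r lay between 0.126 and 0.293.

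Every ZBTB gene may be named. Values in every library are given for ZBTB16 and ZBTB43, for genes called one way in at least 4 of 6 hormone comparisons, in all 3 LNCaP guide lines at a treatment or in an interaction, and for the 4 largest called changes each way between 42D and LNCaP. The genes and lists were chosen with earlier results of these data known.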

Additional observations from a re-analysis of the deposited data

Results flagged for a closer look

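The hormone response differed between lines, by a test of the difference itself without the replicate block, for 3 ZBTB genes in 5 cases. ZBTB10 rose less with R1881 in LNCaP C2 than in LNCaP NT3, with a difference of -0.58 on the log2 scale, and less in 42D NT3 than in LNCaP NT3, with a difference of -0.51. ZBTB43 fell further in 42D sgT33-5 than in 42D NT3 (-0.68) and further in 42D NT3 than in LNCaP NT3 (-0.82). ZBTB34 fell further in 42D NT3 than in LNCaP NT3 (-0.64). The 3 differences between the cell lines share the 42D NT3 and LNCaP NT3 libraries.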

How the results depend on the processing

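Of 139 called values of ZBTB genes, 94 held in every alternative, and none of 1573 alternative values turned its direction; 190 ended a call. Of 253 alternative counts of called ZBTB genes, 214 stayed within 1.5 times. Where a count moved further, the cause was not tested. With the replicate block it was 6 in place of 3 in LNCaP sgT33-5 against NT3 with DMSO, 8 in place of 4 in C2 with DMSO, 6 in place of 2 in sgT33-5 with R1881, 11 in place of 6 in F2 with R1881, 4 in place of 2 in 42D sgT33-5 with DMSO, 2 in place of 1 there with R1881, and, for the interaction, 2 in place of 1 in C2 and 1 in place of 0 in F2. Without a filter on low counts it was 4 in sgT33-5 against NT3 with R1881, 3 in 42D sgT33-5 against NT3 with R1881, 1 in the F2 interaction, and 5 in place of 3 in the difference of hormone response between 42D and LNCaP. With only the libraries compared it was 1 in LNCaP sgT33-5 and 3 in 42D sgT33-5 with R1881, and DESeq2 and RLE factors each gave 2 in the latter. Without the 2 libraries of low mitochondrial share it was 6 in place of 10 for R1881 in LNCaP sgT33-5 and 1 in place of 2 for sgT33-5 against NT3 with R1881.

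Leaving out 1 library at a time gave, for R1881, 9 to 10 in LNCaP NT3, 7 to 10 in sgT33-5, 5 to 8 in C2, 7 to 10 in F2, 11 to 16 in 42D NT3 and 12 to 14 in 42D sgT33-5. For guide lines against NT3 with DMSO it gave 3 to 3 in sgT33-5, 2 to 4 in C2, 5 to 8 in F2 and 2 to 2 in 42D, and with R1881 1 to 4, 7 to 9, 4 to 8 and 0 to 2. The interactions gave 0 to 0 in sgT33-5 and F2 and 0 to 1 in C2 and 42D, the cell lines 26 to 27 and their response difference 2 to 3. In 9 of the 15 pairs of groups compared the replicate numbers did not pair the libraries, so the block results there rest on shared numbers alone.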
